A study of Nicotiana benthamiana with 12 samples.

Results

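The transgenic tobacco line L2 was compared with wild type (WT) under normal conditions, that is, without salt, on 3 arrays of each line out of the 12 arrays of the series. The comparison was narrowed to the probes for which every L2 normal array lay outside the range of the WT normal arrays on one side. There were 5361 such probes, 2178 higher and 3183 lower in L2, among 25876 probes tested and 43759 on the array. Tested probes were those that the scanner software flagged as well above background on every normal array of L2, of WT or of both.

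The question behind the comparison is whether L2 leaves differed from WT leaves before any salt was given. WT normal plants were untreated and not transformed. L2 normal plants were equally untreated and carried CbFAD3, a gene from the cryophyte Chorispora bungeana, behind a constitutive viral promoter. L2 is 1 transgenic line, so its T-DNA insertion and the transgene cannot be told apart here. All seedlings were 2 weeks old, grown in soil at 25 °C under a cycle of 16 h light and 8 h dark, and leaves of several plants were pooled per sample. The 3 WT salt and 3 L2 salt samples, which differed from these in 6 h with 200 mM NaCl, are used only to show what the same probes did under salt. The labels number the samples as replicates, and where no separate cultivation is stated, the spread between them may be partly technical.

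CbFAD3 belongs to the microsomal omega-3 fatty acid desaturases, enzymes of the endoplasmic reticulum that introduce a further double bond into linoleic acid and so produce linolenic acid. Linolenic acid keeps membranes fluid and is also the precursor of jasmonate. Plants carry separate omega-3 desaturases in the plastid envelope, which serve the galactolipids of the thylakoids. Leaves are also a main site where nitrate and sulfate are reduced, through nitrate reductase and adenosine 5′-phosphosulfate (APS) reductase, to nitrogen and sulfur that can enter amino acids.

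The slides bear on every value that follows. Slide 1 held the 3 WT normal arrays and L2 normal 1. L2 normal 2 and 3 shared slide 2 with WT salt 1 and 2. The 3 L2 salt arrays shared slide 3 with WT salt 3. L2 normal 1 is therefore the only L2 normal array that can be set against WT on the same slide, and for L2 normal 2 and 3 an effect of the line, one of the slide and an exchange of samples cannot be told apart. Over the tested probes, L2 normal 1 correlated with the WT normal arrays at 0.987 to 0.990, and with L2 normal 2 and 3 at 0.927 to 0.950. L2 normal 2 and 3 correlated at 0.967 to 0.981 with WT salt 1 and 2, their neighbours on slide 2, and at 0.916 to 0.960 with the WT normal arrays. A normal array detected 53.5% to 63.0% of its probes. The median log2 difference of all tested probes from the WT mean was 0.03 for L2 normal 1, −0.21 for L2 normal 2 and −0.28 for L2 normal 3.

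Of the tested probes, limma counted 0 as changed between L2 and WT under normal conditions (0% of 25876). To be counted, a probe needed more than a 2-fold difference and a p below 0.05 after Benjamini-Hochberg adjustment. No adjusted p from limma fell under 0.0517, and 5357 probes (20.7%) had an unadjusted p below 0.05. The methods' t-test likewise counted 0 probes after adjustment, and 204 higher and 156 lower probes without it. The count rested on L2 normal 1: without that array, limma counted 1569 probes as higher and 2204 as lower, and these were then measured against WT arrays of another slide only.

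L2 normal 2 and 3 both lay outside the WT range on one side for 17601 probes, 5464 higher and 12137 lower. L2 normal 1 shared that side for 5361 of them (30.5%), lay inside the WT range for 6814 (38.7%) and lay beyond the opposite end of the range for 5426 (30.8%). Thus L2 normal 1 was nearly as often on the other side of the WT range as on the same side. The 5361 probes of the same side made up 8.42% of all tested probes in the higher and 12.3% in the lower direction. Since these probes were selected on the normal arrays, their differences under normal conditions are descriptions and carry no test.

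**Figure D1:**
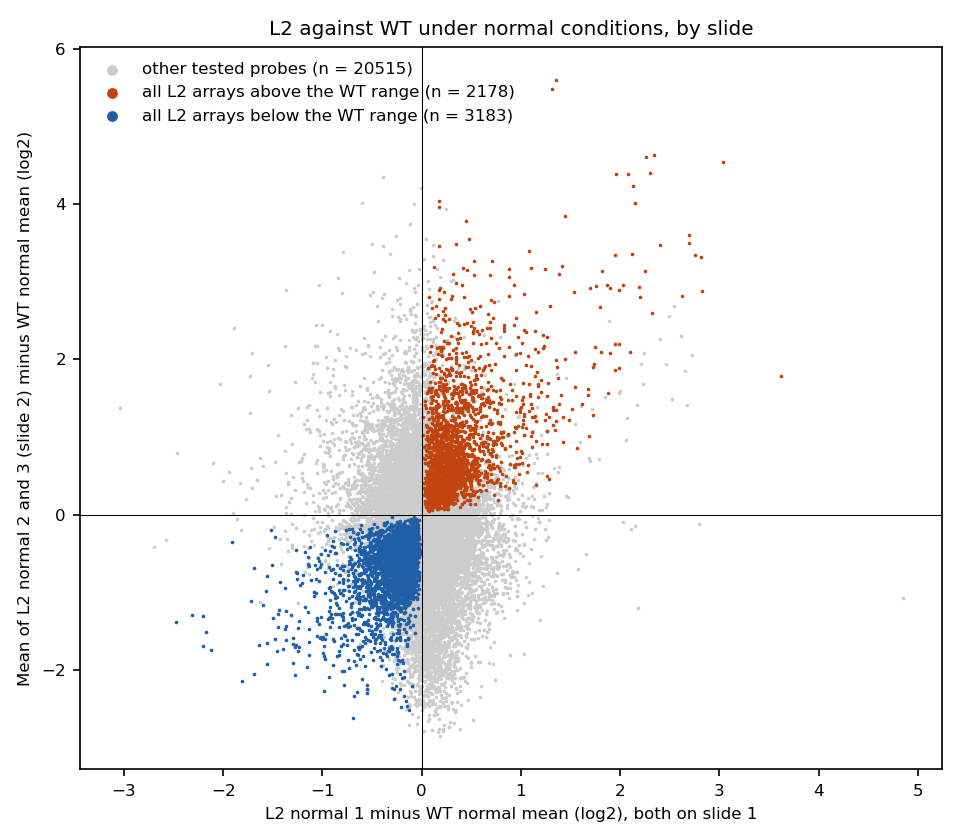
Each point is a tested probe. The horizontal axis gives the log2 difference of L2 normal 1 from the WT normal mean within slide 1, and the vertical axis that of the mean of L2 normal 2 and 3, which lie on slide 2. The 2178 higher (red) and 3183 lower (blue) probes lie in the corners where all 3 L2 arrays left the WT range on one side, with medians of 0.28 and −0.23 on the horizontal axis and 0.71 and −0.63 on the vertical axis.

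The differences of these probes were small on slide 1. The median log2 difference of the higher probes was 0.59 over the 3 L2 arrays, but 0.28 for L2 normal 1 and 0.71 for L2 normal 2 and 3. For the lower probes the medians were −0.51, −0.23 and −0.63. Over all tested probes the median difference was −0.16, and taking the 75th percentile only over probes detected on every array moved it to −0.03. Relative to the median of all probes, the higher probes lay at 0.74 and the lower at −0.35, and within slide 1 at 0.25 and −0.26. The balance of directions depended on this shift: the same scaling gave 2824 higher and 2568 lower probes, and scaling by the median of each array gave 1748 and 3952.

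More than a 2-fold difference in the mean was found for 519 higher probes (2.01% of all tested probes) and 299 lower probes (1.16%). On L2 normal 1 alone, 141 of the higher and 83 of the lower probes differed by more than 2-fold. Of all tested probes, 248 were more than 2-fold higher on L2 normal 1, and the lower direction was not counted over all probes. Every single L2 array differed by more than 2-fold from the WT mean for 77 higher and 40 lower probes. All 6 normal arrays detected 4867 of the 5361 probes, and for 74 no array of one line did. At the edge of the selection stood probe A_95_P115477, whose lowest L2 array and highest WT array both read 1.23, and A_95_P092133, with an L2 normal 1 value and a lowest WT value of 0.06. Just outside stood A_95_P258556 and A_95_P108693, for which L2 normal 1 read −0.10 and 4.80, level with the WT limit.

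Names could be given only to the probes in the study's list of salt-raised transcripts, to probes that share an accession with one of them, and to a plastid desaturase probe. Grouped here by their names, 12 tested probes of the list fell in nitrogen and sulfur metabolism. Of these, 8 were lower on every L2 normal array than on any WT normal array, against 12.3% of all tested probes. These 8 were the 6 APS reductase-like probes, a nitrate reductase probe and a probe for a neutral amino acid transporter. A further nitrate reductase probe outside the list met the rule as well. The other 4 did not: within slide 1 the log2 difference was 0.16 for the LHT1-like protein (A_95_P190577), 0.02 for aspartate aminotransferase (A_95_P173162), 0.03 for a sulphur deficiency-induced protein (A_95_P053311) and −0.52 for glycine dehydrogenase (A_95_P121002). Over all normal arrays these probes differed by −1.13, −1.42, −0.34 and −0.44.

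APS reductase reduces activated sulfate to sulfite on the way to cysteine and glutathione. The log2 values of probe number 16 of the list (A_95_P170234, EH664856) were −0.97, −0.47 and −0.60 in WT, and −2.36, −2.03 and −3.44 in L2, a 3.81-fold lower mean. The WT values spanned 0.49, and the nearest L2 value lay 1.06 below them. For number 22 (A_95_P000116) the values were 1.42, 1.80 and 1.74 in WT and 0.20, 0.54 and −0.74 in L2, a 3.14-fold lower mean. Number 58 (A_95_P134072) read 2.32, 2.57 and 2.60 in WT and 1.52, 1.10 and 0.16 in L2, a 2.97-fold lower mean. In each of these probes L2 normal 3 was the lowest of the L2 arrays. Number 17 (A_95_P259371) read 0.54, 0.97 and 0.89 in WT and −0.70, 0.09 and −1.14 in L2.

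The other two APS reductase-like probes showed smaller gaps. Number 40 (A_95_P186302) read 0.45, 1.10 and 0.75 in WT and 0.16, 0.00 and −1.09 in L2, and number 43 (A_95_P134087) read 1.28, 1.85 and 1.57 in WT and 0.84, 0.62 and −0.37 in L2. Here L2 normal 1 lay closest to the WT range. Within slide 1 the 6 probes differed by log2 −0.61 to −1.69, and over all normal arrays by −1.08 to −1.93. Relative to the median of all probes, the ranges were −0.64 to −1.72 and −0.92 to −1.77. The 6 probes may read transcripts of near-identical genes, so they are not 6 separate genes.

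Nitrate reductase catalyses the reduction of nitrate to nitrite, the first step of nitrate assimilation. Its probe A_95_P247817 (X06134) is not itself in the list. It read 2.40, 3.01 and 3.02 in WT and 1.44, 1.23 and 1.52 in L2, a 2.66-fold lower mean (WT 2.81 ± 0.36, L2 1.39 ± 0.15; SD, n = 3). The 3 L2 arrays spanned 0.29 across both slides, and the difference within slide 1 was −1.37 against −1.41 over all normal arrays. The probe in the list with the same accession, number 48 (A_95_P258921), read −0.75, 0.24 and 0.25 in WT and −0.92, −1.39 and −1.68 in L2. Its WT normal 1 value lay near the L2 values.

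The neutral amino acid transporter probe, number 52 (A_95_P107022), read 3.04, 2.81 and 2.93 in WT and 2.52, 1.90 and 1.84 in L2, a 1.79-fold lower mean. Granule-bound starch synthase makes the amylose of starch granules, and its number 53 (A_95_P136752) read −0.69, −0.24 and −0.38 in WT and −1.01, −1.05 and −2.02 in L2. A further probe with the same accession as the starch synthase (A_95_P245082) was also lower on all L2 arrays, by log2 −0.76 over all normal arrays and −0.67 within slide 1. The third probe of that accession (A_95_P138762) did not meet the rule, with −2.23, −1.78 and −1.96 in WT and −2.69, −1.73 and −2.74 in L2. Of the remaining probes that share an accession with the list, 3 met the rule, which 20.7% of all tested probes met in either direction. How many such probes were tested is not given here, so the 3 cannot be compared with that share. The 3 probes were chosen after their values were seen. The secretory peroxidase accession, which names an enzyme of the cell wall, had a probe (A_95_P112997) at −1.39, −1.53 and −1.48 in WT and −0.92, 0.52 and 0.13 in L2. The histidine kinase accession (A_95_P204347) was higher by 0.18, and a receptor-like kinase accession (A_95_P081730) was lower by 0.80, with −0.20 within slide 1.

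**Figure D2:**
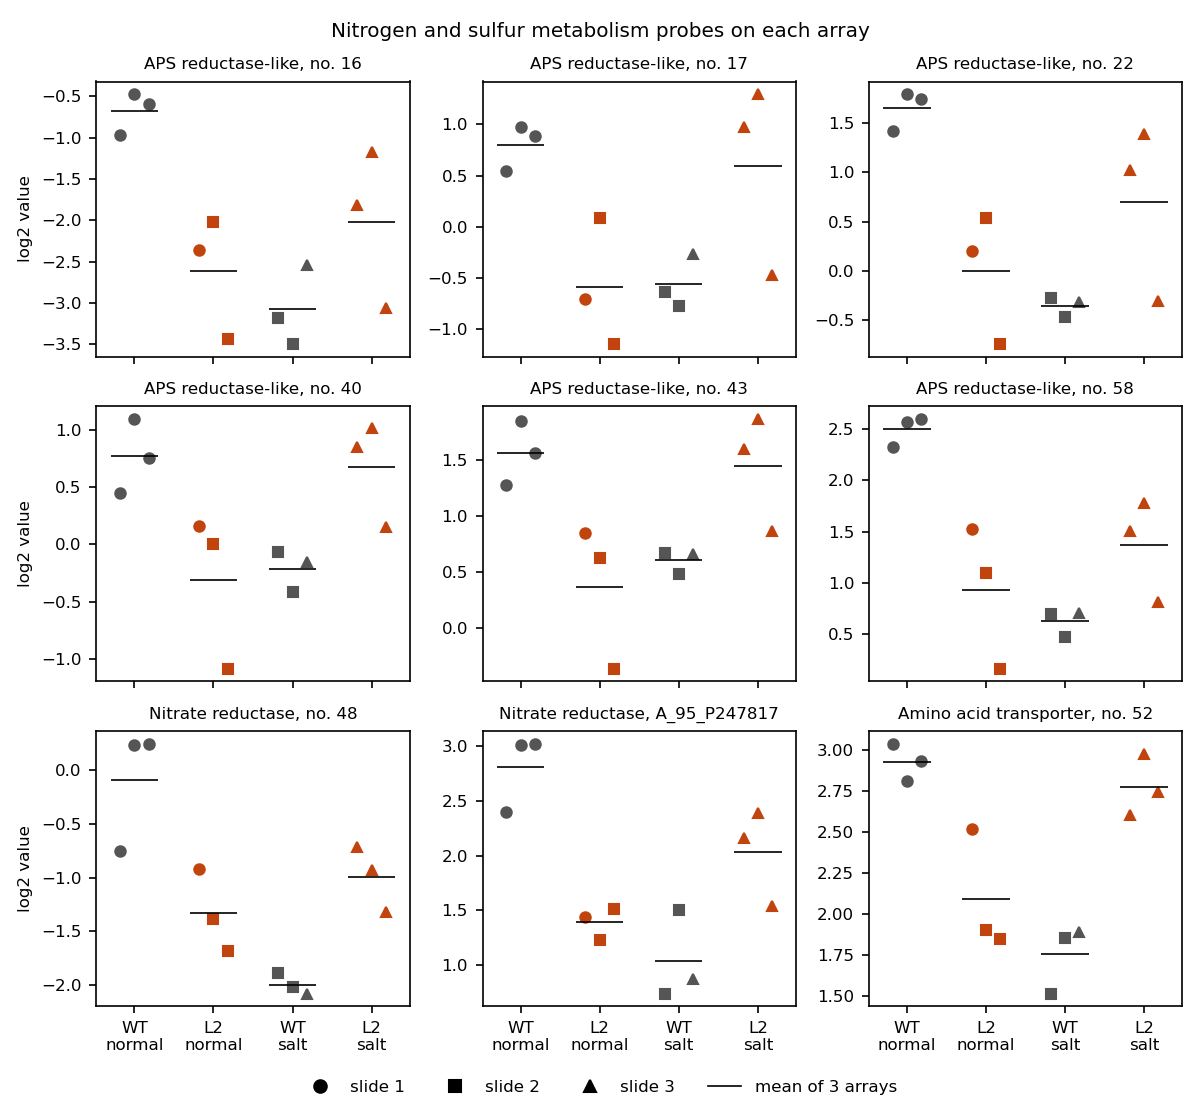
Log2 values relative to the 75th percentile of each array for 6 APS reductase-like probes, both nitrate reductase probes and the amino acid transporter probe, by group. Each marker is 1 array (WT grey, L2 red), its shape gives the slide, and the line is the mean of 3 arrays. All L2 normal arrays, the slide 1 array included, lay below all WT normal arrays.

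Of the 61 probes in the list, 50 were tested, and limma counted 0 as changed under normal conditions. L2 normal 2 and 3 both lay below the WT range for 39 of them, and L2 normal 1 did so as well for 9 (23.1%), against 26.2% of all probes with L2 normal 2 and 3 below. Of the nitrogen and sulfur metabolism probes, 12 of 13 were tested, and 8 were lower on every L2 array, against 12.3% of all tested probes. In the rest of the list, L2 normal 2 and 3 lay below WT for 29 probes, and L2 normal 1 did so for 1 of these, the starch synthase. The list was drawn from salt arrays that include WT salt 1 and 2, which share slide 2 with L2 normal 2 and 3.

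Within slide 1, the median log2 difference of the 50 probes was 0.13, against 0.03 for all tested probes. Over all normal arrays it was −1.07, against −0.16 for all tested probes. The 4 protein kinase probes tested had a median of −1.11 over all arrays and 0.19 within slide 1, and 0 of them met the rule. The 8 cell wall and membrane probes had medians of −1.09 and 0.21, the 6 transcription and chromatin probes −1.11 and 0.21, and the 4 redox and respiration probes −1.06 and 0.29. None of these 3 groups held a probe that met the rule. For the 12 nitrogen and sulfur probes, the medians were −1.22 and −0.66.

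The L2 values of the SOD probe, number 39 (A_95_P018051), differed between the slides. Superoxide dismutase removes superoxide. It read −3.48, −2.78 and −2.90 in WT, −2.77 on L2 normal 1, and −4.99 and −4.81 on L2 normal 2 and 3. The calcium-binding protein, number 23 (A_95_P192712), read −2.91, −2.44 and −2.62 in WT, −2.43 on L2 normal 1, and −5.90 and −4.34 on L2 normal 2 and 3. For each of these probes the L2 normal 2 value was not well above background, the lowest detected value on that array being −4.19, so only 2 of the 3 L2 arrays measured them. L2 normal 1 was not below WT, and the detected L2 normal 3 value lay below WT. The MYB transcription factor probe, number 13 (A_95_P084005), read −4.64 to −5.05 in WT and −4.93, −4.87 and −5.0 in L2, where 1 L2 array detected it. Of the probes measured by qRT-PCR in the study, the cytochrome c oxidase and lipid-transfer protein probes were too dim to be tested.

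**Figure D3:**
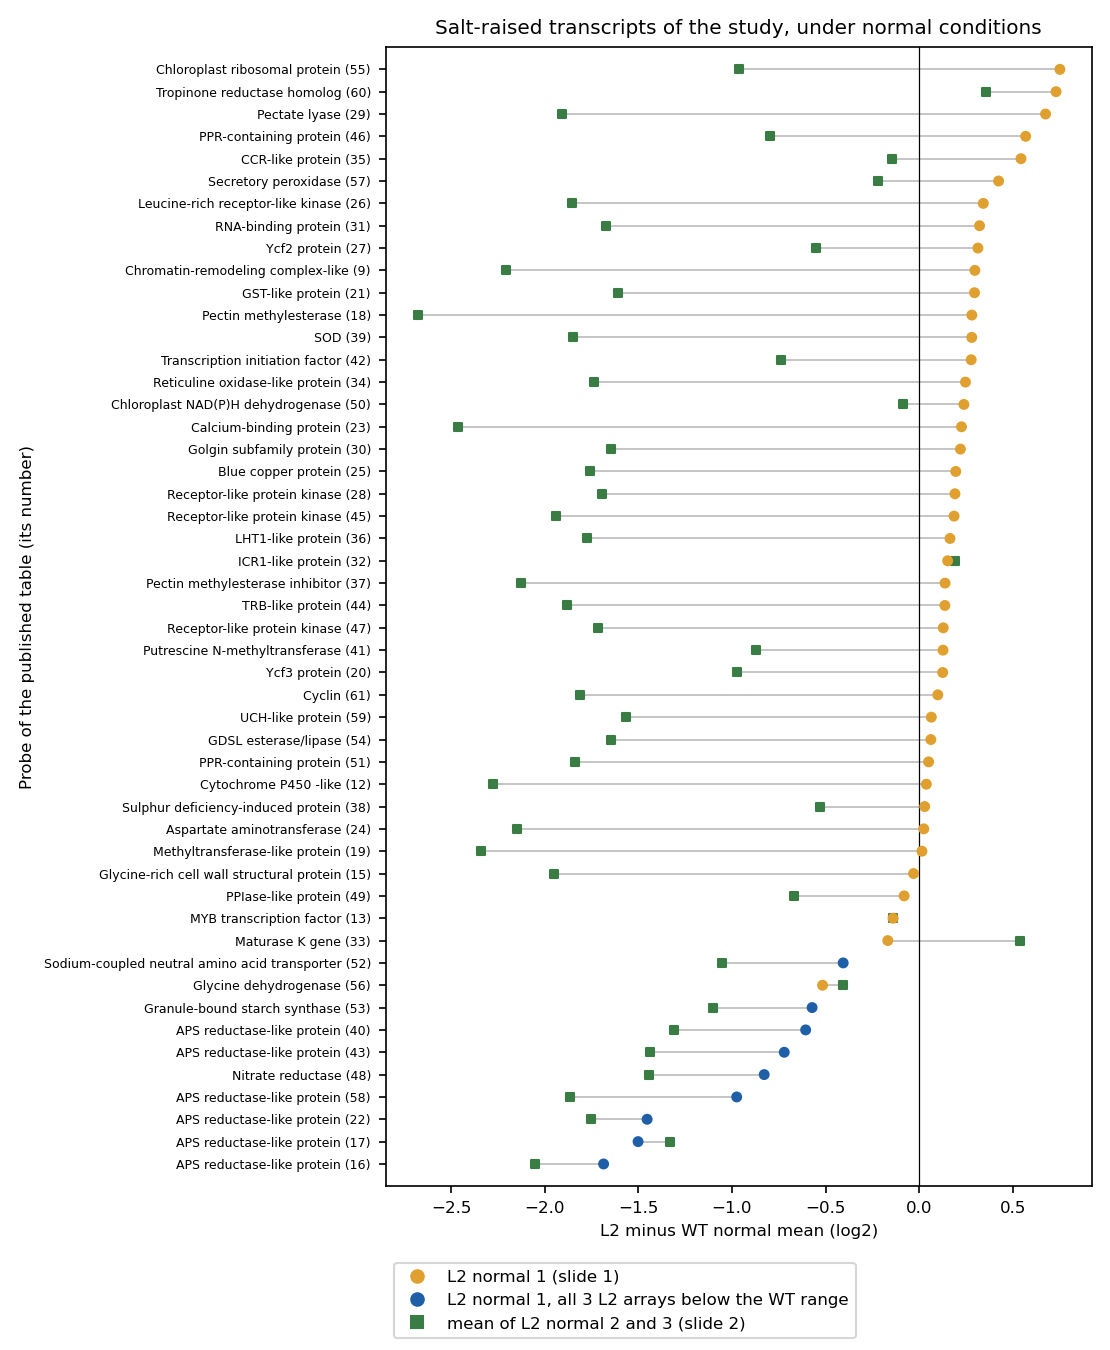
For each of the 50 tested probes of the study's list, the log2 difference from the WT normal mean of L2 normal 1 on slide 1 (circle) and of the mean of L2 normal 2 and 3 on slide 2 (square). The 9 probes whose 3 L2 arrays all lay below WT are in blue at the bottom, and the other circles lie mostly near 0 while their squares lie lower.

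The 4 probes taken as plastid genes for photosynthesis or intron splicing gave no common direction. Over all normal arrays the log2 difference was −0.61 for Ycf3, an assembly factor of photosystem I (A_95_P047176), −0.26 for Ycf2 (A_95_P083300), 0.30 for maturase K (A_95_P035398) and 0.02 for the plastid NAD(P)H dehydrogenase (A_95_P023626). Within slide 1 the values were 0.13, 0.31, −0.17 and 0.24, so the sign turned for Ycf3, Ycf2 and maturase K. The sign of the dehydrogenase turned under quantile normalization. None of these probes met the rule. The other probe of the maturase K accession (A_95_P260261) differed by −0.43 over all normal arrays and by 0.12 within slide 1, so both probes of this accession disagreed in sign. NtFAD7, the plastid omega-3 desaturase of tobacco (A_95_P237544, D79979), read 4.09, 4.39 and 4.21 in WT and 4.24, 3.93 and 3.50 in L2. L2 normal 1 lay inside the WT range, with a difference of 0.01, and the sign over all normal arrays (−0.34) rested on slide 2.

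The strongest increases in L2 were in probes that carry only an accession. A_95_P263916 (AM838197) read −2.59, −2.14 and −2.26 in WT and 0.49, 0.73 and 0.36 in L2, a 7.25-fold higher mean. Its 3 L2 arrays spanned 0.37 across both slides. A_95_P006611 (CV021053) read −3.74, −3.90 and −3.94 in WT and −1.67, −0.76 and −1.10 in L2, a 6.42-fold higher mean. A_95_P215652 (TA20535_4097) read −4.42, −4.14 and −3.86 in WT and −2.15, −2.45 and −2.06 in L2, a 3.78-fold higher mean. L2 normal 1 differed from the WT mean by 2.82, 2.19 and 1.99 in these probes, and L2 normal 2 and 3 by 2.88, 2.93 and 1.88.

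In others the L2 arrays lay further apart, with L2 normal 3 the highest of them. A_95_P129342 (EB429112) had the largest mean difference among the 10 highest-ranked probes, 14.2-fold, with −4.11, −4.61 and −4.86 in WT and −2.27, −0.78 and 0.96 in L2. A_95_P292943 read −3.66, −4.28 and −4.35 in WT, and −1.69, −1.60 and 0.36 in L2. A_95_P212852 (EB449778) read −2.26, −2.72 and −2.61 in WT and −0.50, −0.37 and 1.24 in L2. L2 normal 1, 2 and 3 differed from the WT mean by 2.40, 2.49 and 4.46 for A_95_P292943, and by 2.03, 2.16 and 3.77 for A_95_P212852, so that L2 normal 1 and 2 were close although they lie on different slides. The other probes of the 10 highest-ranked were A_95_P051391, A_95_P215547, A_95_P126732 and A_95_P034039, with mean log2 differences of 2.60, 2.50, 1.84 and 2.60, and of 1.87, 2.32, 1.72 and 2.20 within slide 1.

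Of the 10 highest-ranked lower probes, 3 were APS reductase and nitrate reductase probes described above. A_95_P001771 (AJ632774) read 0.10, 0.67 and −0.05 in WT and −2.24, −1.33 and −0.96 in L2, a 3.36-fold lower mean. A_95_P005876 (EB678658) read 1.12, 1.72 and 1.09 in WT and −0.89, −0.13 and 0.13 in L2, a 3.05-fold lower mean. For both probes L2 normal 1 was the lowest array, with differences of −2.48 and −2.20 within slide 1. A_95_P252809 (EH621250) read −2.09, −1.86 and −1.82 in WT and −3.24, −3.13 and −3.31 in L2, and A_95_P131762 (EB432151) read −1.84, −1.62 and −2.03 in WT and −2.97, −3.06 and −3.10 in L2. The L2 arrays spanned 0.19 and 0.13 in these probes. The others were A_95_P014381, A_95_P117292 and A_95_P107994, with mean log2 differences of −1.33, −1.31 and −1.39.

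**Figure D4:**
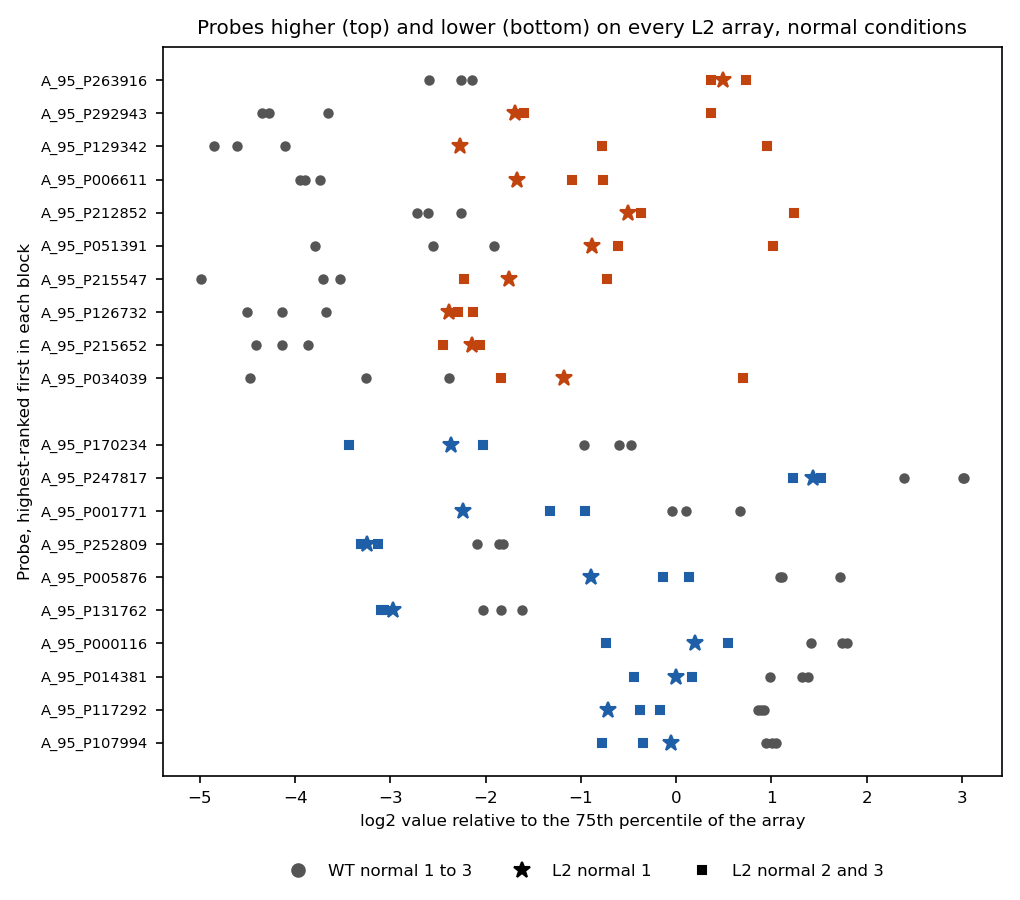
Log2 values of the 10 higher (top) and 10 lower (bottom) probes whose smallest single-array difference from the WT mean was largest, among probes well above background on all 6 normal arrays. Grey circles are WT arrays, stars are L2 normal 1 and squares L2 normal 2 and 3, and in each line the colours do not overlap because the probes were chosen so.

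Probes detected on each array of one line and on none of the other have only a bound. This held for 16 probes detected in L2 and 76 detected in WT, when all tested probes are counted. L2 normal 2 detected 53.5% of its probes, with a lowest detected value of −4.19. The WT normal arrays detected 59.8% to 63.0%, with lowest detected values of −5.01 to −5.21. Detection on every array was therefore harder to reach in L2, and the 2 counts are not directly comparable. The largest bounds were an at least 7.03-fold higher level in L2 for A_95_P164872 and at least 5.10-fold for A_95_P262076, followed by A_95_P177807, A_95_P255204 and A_95_P130077 at 4.79, 4.78 and 4.44. Single arrays varied widely in these probes, and A_95_P164872 read −3.31, −3.79 and 0.17 in L2. In the other direction the bounds were smaller, at least 1.83-fold lower in L2 for A_95_P057686, and 1.61 to 1.62 for A_95_P066185, A_95_P030441, A_95_P062765 and A_95_P071460.

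Several accessions had more than 1 probe. Of 1971 accessions with more than 1 tested probe, 196 had at least 2 probes that met the rule, and in 186 of these all such probes shared a direction. These counts leave out the probes of the same accessions that did not meet the rule, so the shared direction is partly selected. For the secretory peroxidase accession (AF149251), the difference over all normal arrays was 1.38 for A_95_P112997, which met the rule, and −0.006 for A_95_P249287, which did not. The 3 probes of EB680265 were lower by −0.92, −0.68 and −0.70 over all arrays and by −0.83, −1.01 and −0.68 within slide 1. The 3 probes of FG136377 were lower by −0.95, −0.93 and −0.83, and those of FS407031 were higher by 0.46, 0.55 and 0.29.

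Under salt stress most of the probes selected without salt did not keep their direction over all salt arrays. Of the higher probes, 40.2% had a higher mean in L2 than in WT under salt, against 55.8% of all tested probes. Of the lower probes, 32.5% were lower, against 44.2% of all tested probes. The L2 salt values all exceeded the WT salt values for 87 of the 2178 higher probes, against 8.64% of all tested probes, and all fell short of them for 198, against 5.26%. For the 3183 lower probes, these counts were 370 above and 95 below. Limma counted 0 of these probes, and 0 of all probes, as changed between L2 and WT under salt (1506 with an unadjusted p below 0.05), and 0.0821 was the lowest p after adjustment.

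The comparison within slide 3 set the L2 salt arrays against WT salt 3. For the selected probes as a whole, it gave shares that were nearly those of all probes. There 55.2% of the higher probes were higher in L2, against 55.5% of all tested probes, and 45.5% of the lower probes were lower, against 44.5%. The pooled salt comparison includes WT salt 1 and 2, which share slide 2 with L2 normal 2 and 3, and the part of the slide in it was not tested beyond these values. For 170 higher and 190 lower probes, the raw floor around the spot was more than 2-fold off that of its whole array on at least 1 salt array, which held for 0 probes on the normal arrays. Of all 25876 tested probes, 1801 had such a spot on a salt array. Without such spots, 39.3% of the higher probes stayed higher and 32.8% of the lower probes lower over all salt arrays. For the difference between the line differences with and without salt, limma counted 0 probes (4611 with an unadjusted p below 0.05), with a lowest adjusted p of 0.131.

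Of the 519 higher probes that differed by more than 2-fold, 195 (37.6%) were higher in L2 under salt, against 55.8% of all tested probes. Within slide 3, 287 (55.3%) were higher, against 55.5%. Of the 299 lower probes, 68 (22.7%) were lower under salt, against 44.2% of all tested probes. Within slide 3, 73 (24.4%) were lower, against 44.5%. For these lower probes, unlike the selected probes as a whole, the share within slide 3 thus stayed below that of all tested probes.

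**Figure D5:**
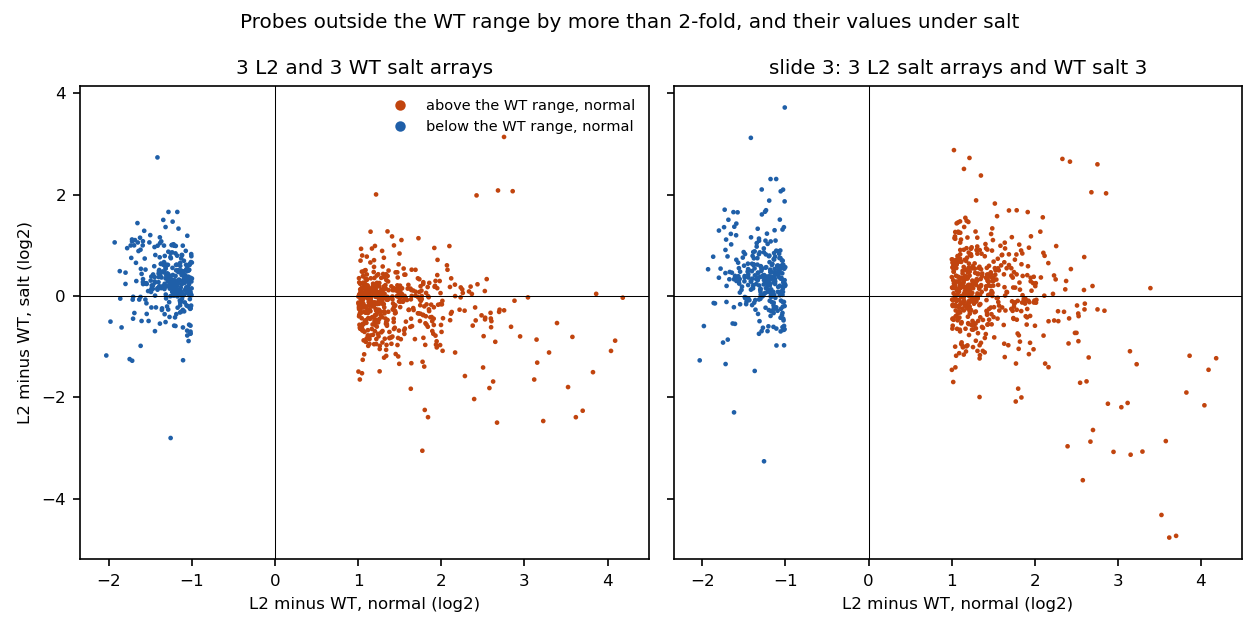
Log2 difference between L2 and WT under normal conditions (horizontal) against that under salt (vertical) for the 818 probes outside the WT range by more than 2-fold, with all salt arrays (left) and within slide 3 (right). Of the lower probes (blue), most lie above 0 under salt in both panels, and of the higher probes (red) 195 lie above 0 on the left and 287 on the right.

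The APS reductase-like probes were among those that were lower without salt and higher with it. Under salt, number 16 read −3.18, −3.50 and −2.54 in WT and −1.81, −1.18 and −3.06 in L2, so that the groups overlapped. Number 58 read 0.70, 0.47 and 0.71 in WT and 1.50, 1.78 and 0.81 in L2, with all L2 arrays higher. The 6 probes were higher in L2 under salt by log2 0.74 to 1.16, and by 0.53 to 1.02 within slide 3. They were placed in the study's list for a higher level in L2 under salt, so these salt values are no separate evidence.

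The nitrate reductase probe outside the list, A_95_P247817, read 0.74, 1.50 and 0.87 in WT salt and 2.16, 2.38 and 1.54 in L2 salt. L2 was 0.99 higher on the log2 scale with a standard error of 0.27 (limma adjusted p = 0.640), and 1.16 higher within slide 3. Every L2 array was higher, by a margin of 0.04 at its narrowest. Its accession is in the list through number 48, so it was not free of that choice either.

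Of the 10 highest-ranked higher probes, 2 kept all L2 arrays above all WT arrays in both conditions. Under salt, all L2 arrays lay above all WT arrays for 3.99% of the 2178 higher probes and 8.64% of all tested probes. A_95_P263916 read −2.22, −2.56 and −2.33 in WT salt and −0.57, −1.21 and 0.87 in L2 salt, which is 2.07 higher on the log2 scale with a standard error of 0.41 (limma adjusted p = 0.363). A_95_P006611 read −3.14, −3.17 and −3.10 in WT salt and −1.92, −1.17 and −0.08 in L2 salt, which is 2.08 higher with a standard error of 0.38 (limma adjusted p = 0.358). The differences within slide 3 were 2.02 and 2.04. Neither salt difference passed the test across all probes. Slide 3 holds 1 WT salt array.

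The remaining high-ranked probes varied under salt. A_95_P126732 turned from 1.84 without salt to −2.39 with it, where 0 L2 arrays detected it and its size is not measured, and A_95_P215547 turned from 2.50 to −1.41, where 1 L2 array detected it. A_95_P129342 differed by −1.51, A_95_P292943 by −1.65 and A_95_P212852 by −0.91 under salt. A_95_P215652 was level, at −1.69, −1.78 and −2.35 in WT salt and −1.89, −1.81 and −1.59 in L2 salt. Among the lower probes, A_95_P001771 stayed lower, at 0.14, 1.05 and 0.11 in WT salt and −1.43, −1.31 and 0.29 in L2 salt, where the groups overlapped. Its difference was −1.25 (limma adjusted p = 0.798) and −0.92 within slide 3.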

How the data were processed

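Total RNA from leaves was labelled with Cy3 and hybridized to one-colour Agilent tobacco arrays. The labels name Nicotiana benthamiana, whereas the array is designed for N. tabacum. The authors extracted a background-corrected spot intensity with Agilent Feature Extraction (version 10.7.3.1 in the processing notes, 11.5.1.1 in the file headers). The deposited series table holds log2 values, the processed signal having been scaled to the 75th percentile of its array. Against the deposited scanner values, 100% of the values of single-spot probes differed by one constant per array, within 0.01. The columns of this table were used as deposited, and flags for a signal well above background came from the scanner files. The study's methods name GeneSpring GX, an unpaired test, a Benjamini-Hochberg correction and a limit of 2-fold.

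Group means of the 12 arrays were fitted with limma 3.58.1 in R 4.3.3, with 8 residual degrees of freedom and no slide term. Probes counted as changed had an adjusted p below 0.05 over the 25876 tested probes and more than a 2-fold difference. Values within slide 1 are L2 normal 1 minus the WT normal mean, and within slide 3 the L2 salt mean minus WT salt 3. Each group had 3 arrays, which limits the precision. For a bound, the detected line's mean was set against a floor. Per array of the other line, the floor was the lowest signal well above background, or the probe's own signal where that was brighter. In simulated data for the comparison without salt, run on 25876 probes with independent noise, limma found 83.0% of the 4-fold changes and 22.5% of the 2-fold changes. Tables and figures were made with Python 3.11.15, numpy 2.4.6, pandas 2.3.3 and matplotlib 3.10.9.

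The rule named the 10 highest-ranked probes in each direction by their smallest single-array difference, the 5 largest bounds in each direction, any probe limma counted as changed, and the qRT-PCR, APS reductase-like, plastid and desaturase probes and those of the list that met the rule. The other probes that share an accession with the list, and the accessions with several probes, were chosen after their values were seen. The members and lists were chosen with earlier results of these data known. Gene names come from the study, and the groups of the list were formed here from those names. Gene lists by pathway and markers of leaf or root could not be matched, because the files give accessions without descriptions. For the same reason CbFAD3 itself was not analysed here. The alternatives concerned scaling, background, filters, flagged spots, the fit, the test, the replicate number or the slide as a block, and each array left out.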

Additional observations from a re-analysis of the deposited data

Results flagged for a closer look

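Of the probes named by rank or through the list and its accessions, 9 turned between conditions. Without salt all L2 arrays lay on one side of all WT arrays, and with salt on the other side. A_95_P030441, for which only a bound exists, turned as well, from lower to higher, but 0 salt arrays of either line detected it. This difference between conditions was tested with limma's interaction term over all tested probes and passed for 0 of them, with adjusted p from 0.131 to 0.199. Without salt the probes had been chosen for not overlapping, and the list's probes had been chosen for a higher level in L2 with salt. The same turn was found for 198 of the 2178 higher probes (9.09%) and 370 of the 3183 lower probes (11.6%). Of all tested probes, all L2 salt arrays lay below all WT salt arrays for 5.26% and above them for 8.64%. The log2 change in the line difference, salt minus normal, was 1.96 for the APS reductase-like probe A_95_P186302, 2.04 for A_95_P134087 and 2.31 for A_95_P134072. It was 2.24 for the nitrate reductase probe A_95_P258921, 2.40 for A_95_P247817 and 1.86 for the amino acid transporter probe A_95_P107022. In the other direction it was −2.21 for the peroxidase accession (A_95_P112997), −3.92 for A_95_P215547 and −4.23 for A_95_P126732. Under salt, 0 L2 arrays detected A_95_P126732 and 1 detected A_95_P215547, so their changes are fitted values whose size was not measured. The part of the slides in the pooled values was not tested further.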

How the results depend on the processing

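Limma's count of changed probes without salt stayed at 0 higher and 0 lower with the scanner signal, normexp, a signal floor, an intensity trend and the replicate block. The deviations of same-numbered arrays correlated at −0.41, 0.05 and −0.07 without salt and at 0.16, 0.10 and −0.03 with it. These values cannot decide whether the replicate numbers pair the samples, because L2 normal 1 lies on another slide than L2 normal 2 and 3. Quantile normalization gave 3 higher and 8 lower probes, the median of each array 3 and 10, a filter over any of the 4 groups 2 and 5, spots with a deviating local floor left out 1 and 1, and the all-array filter and the slide as a block 1 higher each. Array weights gave 1546 and 2224, with a weight of 0.125 for L2 normal 1, but their estimation did not converge. The methods' t-test without adjustment gave 204 and 156, and the 2-fold limit with no test 943 and 1095. With each array left out, the counts ranged from 0 to 1569 and from 0 to 2204, and were highest without L2 normal 1. Without L2 salt 3 they were 4 and 1, without WT salt 1 they were 1 and 6, and without WT salt 3 they were 1 and 0.

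The probes outside the WT range ranged from 2603 to 5735 higher and from 3698 to 12137 lower with a normal array left out. Those over 2-fold ranged from 343 to 1905 and from 214 to 2716. All these maxima came without L2 normal 1, and the minima over 2-fold without L2 normal 3. Without WT normal 1 there were 6223 lower probes, 1189 of them over 2-fold. Over 2-fold, normexp gave 278 higher and 63 lower, no filter 1007 and 507, L2 normal 1 alone 141 and 83, and the all-array filter 114 lower. The share of higher probes that stayed higher under salt was 48.8% with the median of each array, 51% with no filter, 55.2% with the slide as a block or slide 3 alone, and 31.8% with array weights. With an array left out it ranged from 30.7% to 46.9%, and the share of lower probes that stayed lower from 25.0% to 39.1%. Members changed under salt numbered 1 with the median of each array, 2 with the 75th percentile over detected probes, 14 with the slide as a block, 95 with array weights, and 0 to 5 with an array left out, 5 without L2 normal 1. In the main setting, members made up 20.7% of all tested probes. The counts over all tested probes are not given for these settings, so the member counts show nothing particular to the members. The interaction count was 1 with the slide as a block, 5092 with array weights, and 0 to 4353 with an array left out, 4353 without L2 normal 1.

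The median of the list without salt was 0.13 with the slide as a block or L2 normal 1 alone, −1.07 without its first 14 numbers, and −1.65 to −0.75 with an array left out. With the slide as a block, the sign turned for SOD (A_95_P018051, 0.28), Ycf3 (A_95_P047176, 0.13), Ycf2 (A_95_P083300, 0.31), maturase K (A_95_P035398, −0.17), the calcium-binding protein (A_95_P192712, 0.23) and NtFAD7 (A_95_P237544, 0.014). With quantile normalization it turned for MYB (A_95_P084005, 0.055) and the plastid dehydrogenase (A_95_P023626, −0.0557), which also turned with array weights (−0.27). With a normal array left out, the dehydrogenase ranged from −0.18 to 0.25, below 0 without WT normal 1, WT normal 2 or L2 normal 1, and Ycf2 from −0.55 to 0.12, above 0 without L2 normal 3. None of the probes named as lying outside the WT range turned under the alternatives run. With arrays left out, array weights, blocks or other filters, this was fixed in advance by selecting probes that did not overlap. Only a change in scaling or in the signal values could have turned their sign. The causes were not tested. Signal over background, rather than depth, limits the dim probes.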
